A study of Mus musculus with 2 samples.

Results

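Transcripts of 31 genes of glycolysis and the pentose phosphate pathway were followed through the cells of MC38 tumors from mice on a ketogenic or a normal diet. The members were taken by name as a fixed pathway list, from the glucose transporters to pyruvate dehydrogenase and with 4 pentose phosphate enzymes, and all 31 were found among the 32285 genes listed in the counts. The ketogenic diet group and the normal diet group each gave 1 library, made from a pool of 5 mice. All mice were C57BL/6J females, 6 to 8 weeks old when MC38 cells, a colon adenocarcinoma line derived from the same mouse strain, were placed under the skin of the flank. The ketogenic diet group ate that diet from day 4 after the injection, the normal diet group stayed on its normal diet throughout, and tumors of both were taken at day 14 and enriched for leukocytes with beads against CD45. With 1 pool per diet and no mark of the mouse on a cell, nothing shows how far mice or libraries of 1 diet differ, so no test between diets was possible. Levels are given with exact 95% Poisson intervals and ratios with exact conditional binomial intervals, in brackets, and both cover counting error only.

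Glycolysis splits glucose into pyruvate and yields ATP without oxygen, and cells that run it fast return much of the pyruvate as lactate. The pentose phosphate pathway branches off at glucose 6-phosphate, supplies NADPH and ribose, and feeds its surplus sugars back into glycolysis. Activated macrophages, neutrophils and effector lymphocytes are known for a high glycolytic rate, and hypoxia-inducible factor 1 is a well described activator of most of these genes.

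Cells were set apart by marker genes, and every class name means cells like the named type by these markers. Of 5944 ketogenic and 5671 normal barcodes with at least 500 UMIs (unique molecular identifiers, 1 per captured transcript) and 300 genes, 1137 and 1139 carried markers of more than 1 lineage and were left out of the classes, and 7 barcode sequences occurred in both libraries. The medians over these kept barcodes were 3922 and 4200 UMIs. Of the classes, 12 had at least 50 cells in both libraries and were compared. The classes are cut from a continuous range. Of the macrophage cells, 68 of 446 in the ketogenic and 146 of 981 in the normal library lay within 2-fold of the Arg1 threshold, and of the NK cells 161 of 1331 and 67 of 756 lay that close to the Gzmc threshold. Ptprc, the gene of CD45, was at 15.3 and 22.6 CPM (a gene's UMI counts scaled so that each class and library has the same total) in the Rhox5-positive tumor or stromal class, and between 418 and 1669 CPM in the other 11, so that class went against the label of the sort, and Krt8 and Epcam, genes of epithelial cells, had 0 UMIs in it. The median mitochondrial share was lower in the ketogenic library in 11 of the 12 classes; its part in the results was not tested.

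Promoters of genes that stood highest together in 1 macrophage class are shown, because transcription of many of them is known to be driven through the core of the hypoxia response element. RefSeq (GRCm38.p6) gave windows for 30 of the 31 members. The 250 bases before the annotated start are printed for Slc2a1 (chr4:119108495-119108744 on the plus strand), Gpi1 (chr7:34230337-34230586 on the minus strand), Pgk1 (chrX:106186850-106187099 on the plus strand) and Ldha (chr7:46845554-46845803 on the plus strand, the more upstream of 2 windows), which were high in that class, and for Taldo1 (chr7:141391910-141392159 on the plus strand), which was not. Capitals mark ACGTG or GCGTG on either strand, so that the same core on the other strand reads CACGT or CACGC and overlapping cores merge.
Slc2a1: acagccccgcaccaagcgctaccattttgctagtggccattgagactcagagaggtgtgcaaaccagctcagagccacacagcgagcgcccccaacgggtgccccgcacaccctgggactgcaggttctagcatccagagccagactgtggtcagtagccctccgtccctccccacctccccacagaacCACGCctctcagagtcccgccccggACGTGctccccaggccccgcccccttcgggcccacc
Gpi1: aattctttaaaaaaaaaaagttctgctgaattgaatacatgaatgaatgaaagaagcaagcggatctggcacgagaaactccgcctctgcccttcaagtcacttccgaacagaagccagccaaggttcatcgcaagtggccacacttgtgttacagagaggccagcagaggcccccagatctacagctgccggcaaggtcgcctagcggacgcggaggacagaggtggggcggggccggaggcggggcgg
Pgk1: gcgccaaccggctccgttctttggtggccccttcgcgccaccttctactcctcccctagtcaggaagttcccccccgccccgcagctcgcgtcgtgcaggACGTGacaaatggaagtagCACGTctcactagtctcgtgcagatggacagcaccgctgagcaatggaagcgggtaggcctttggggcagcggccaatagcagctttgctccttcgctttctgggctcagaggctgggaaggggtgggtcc
Ldha: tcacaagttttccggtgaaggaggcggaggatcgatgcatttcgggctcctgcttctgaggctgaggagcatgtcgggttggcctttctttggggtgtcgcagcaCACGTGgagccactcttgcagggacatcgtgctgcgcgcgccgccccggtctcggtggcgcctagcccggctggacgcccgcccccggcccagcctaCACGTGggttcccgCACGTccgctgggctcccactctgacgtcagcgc
Taldo1: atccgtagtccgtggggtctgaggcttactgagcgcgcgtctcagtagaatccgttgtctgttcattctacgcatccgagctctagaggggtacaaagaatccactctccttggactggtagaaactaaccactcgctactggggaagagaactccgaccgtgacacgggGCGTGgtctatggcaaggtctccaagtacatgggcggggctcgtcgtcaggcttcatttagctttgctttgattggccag
The Slc2a1 and Pgk1 windows held 2 such cores each, the Ldha window 5 and the Taldo1 window 1, while the Gpi1 window held 0. Aldoa, Tpi1, Gapdh and Eno1 were also high in that class and are not printed. Windows of these genes held from 0 cores, in Tpi1, to 2, in Gapdh and Eno1. Of 44 windows of members, 35 (79.5%) held at least 1 core, against 38.6% of all 32851 windows of this length. Some windows of the same gene overlap, as in Aldoa, Eno1 and Pfkm, so the same core can count more than once. A share per gene was not counted. The median GC content of the member windows was 60.4%, against 52.4% for all windows, and its part in the share was not tested. These matches describe letters and are not binding sites.

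The summed level of the 31 genes differed more than 4-fold between classes, and the 3 highest and the 3 lowest classes were the same in both libraries. It was highest in Arg1-positive C1q-low macrophages, cells that express arginase 1 and little complement C1q, with 19247 CPM (18798 to 19704) in the ketogenic and 18403 CPM (18070 to 18740) in the normal library. Arg1-positive C1q-positive macrophages came next with 15675 CPM (15314 to 16042) in the ketogenic and 16696 CPM (16437 to 16958) in the normal library, and the tumor or stromal class after them with 11350 CPM (11235 to 11466) in the ketogenic and 12779 CPM (12629 to 12930) in the normal library. The sum weighs abundant members such as Gapdh most.

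At the other end, Gzmc-low natural killer (NK) cells had 4481 CPM (4368 to 4596) in the ketogenic and 4499 CPM (4336 to 4667) in the normal library, the lowest of the 12 classes in both libraries. CD8-negative T cells followed with 5505 and 5877 CPM in the ketogenic and the normal library, and Gzmc-positive NK cells with 7561 and 7617 CPM. So 2 of the lowest 3 classes were NK cells, and the highest 2 were macrophages with Arg1. Between them and the top lay Arg1-negative C1q-positive macrophages, both monocyte classes, neutrophils, cycling NK cells and CD8 T cells, whose sums ran from 8491 to 10419 CPM in the ketogenic and from 8011 to 9707 CPM in the normal library. In that middle range the intervals of cycling NK cells, Chil3-high monocytes and CD8 T cells overlapped in the ketogenic library, and the order of the middle classes was not the same in both libraries. Barcodes of at most 100 UMIs, which hold free RNA, had 7691 and 8643 CPM, below the 3 highest classes in both libraries.

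**Figure D1:**
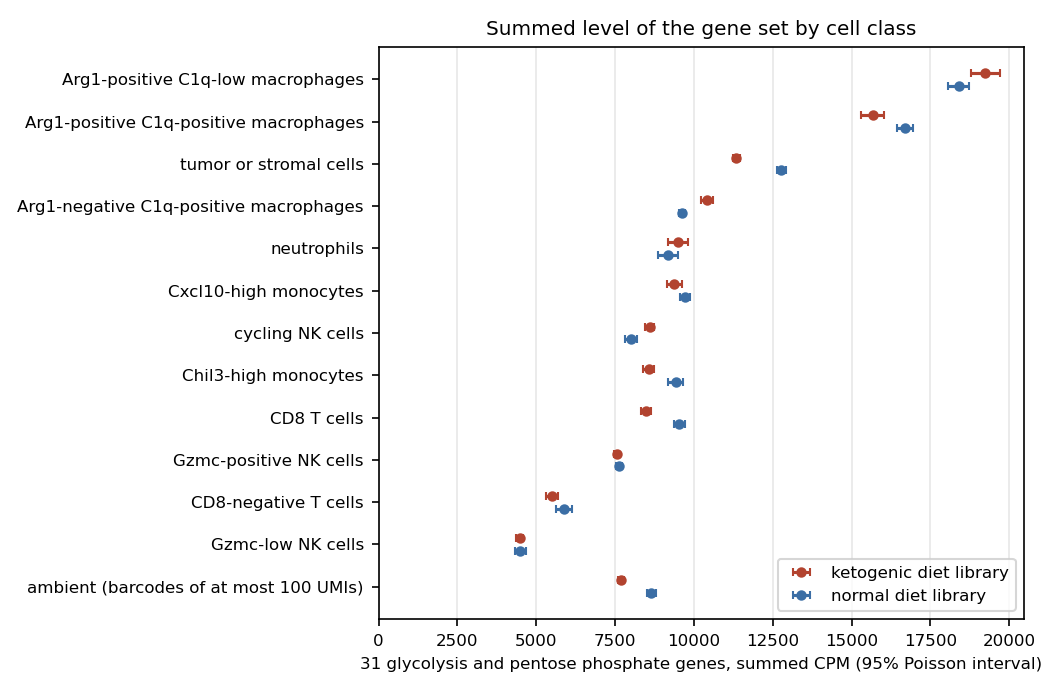
Summed level of the 31 genes in CPM (horizontal axis, from 0) in 12 cell classes and in the ambient barcodes, for the ketogenic (upper point) and the normal library (lower point), with 95% Poisson intervals for counting error. Arg1-positive C1q-low macrophages stand at 19247 and 18403 CPM and Gzmc-low NK cells at 4481 and 4499 CPM.

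Macrophages with Arg1 and little C1q had more RNA of nearly every step of glycolysis than macrophages with C1q and no Arg1, but slightly less of the pentose phosphate genes G6pdx, Tkt and Taldo1. In Arg1-positive C1q-low macrophages compared with Arg1-negative C1q-positive macrophages, the members had a median log2 ratio of 0.80 in the ketogenic and 0.70 in the normal library, against −0.07 and −0.06 over all genes tested, on a log2 scale with 20 CPM added to both levels, which understates the ratios of low genes. The sum over members was 1.85 and 1.91 times as high. Of 25 members with at least 20 UMIs, 4 were at least 2-fold higher in both libraries and 0 were lower; of all 6227 genes tested, 0.771% were that much higher and 0.353% lower.

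Uptake led the list. Slc2a1, the glucose transporter GLUT1, had 295 against 90.7 CPM in the ketogenic library and 323 against 111 CPM in the normal library, ratios of 3.26 (2.46 to 4.31) and 2.92 (2.45 to 3.47). The other transporters, Slc2a3 (GLUT3) and Slc2a6, had too few UMIs for this comparison. Among the hexokinases, which trap glucose as glucose 6-phosphate, log2 ratios in the ketogenic and the normal library were 0.67 and 0.70 for Hk1, 0.87 and 0.60 for Hk2 and 0.80 and 0.65 for Hk3, all above 0 and under the 2-fold mark.

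Most steps from glucose 6-phosphate to pyruvate were close to 2-fold. Gpi1, which turns glucose 6-phosphate into fructose 6-phosphate, had 679 against 320.0 CPM in the ketogenic library and 779 against 312 CPM in the normal library, ratios of 2.12 (1.80 to 2.50) and 2.50 (2.24 to 2.78). Aldoa, the aldolase that cleaves fructose 1,6-bisphosphate, had 2449 against 1210 CPM in the ketogenic library and 2234 against 1029 CPM in the normal library, which with log2 ratios of 1.01 and 1.10 is only just past 2-fold. For Pgk1, which makes the first ATP of the pathway, the values were 1223 against 537 CPM in the ketogenic library and 1226 against 472 CPM in the normal library, with ratios of 2.28 (2.01 to 2.58) and 2.60 (2.38 to 2.83).

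The other enzymes down to pyruvate were under 2-fold in at least 1 library. Log2 ratios were 1.18 and 0.92 for Tpi1, which interconverts the triose phosphates, 0.91 and 0.97 for Gapdh, which oxidizes glyceraldehyde 3-phosphate, 0.82 and 1.0 for the mutase Pgam1 and 0.83 and 1.0 for the enolase Eno1. Pkm, the pyruvate kinase, stood at 0.78 and 0.87 and the phosphofructokinases Pfkl and Pfkp at 0.77 and 0.55 and at 0.59 and 0.50. Pfkfb3, whose product fructose 2,6-bisphosphate stimulates phosphofructokinase, had log2 ratios of 0.81 and 0.91, whereas its relative Pfkfb4 had −0.12 and 0.08.

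Lactate handling went with the glycolytic steps, and mitochondrial entry and the pentose branch did not. Ldha, the lactate dehydrogenase subunit that favors lactate, had log2 ratios of 0.95 and 0.84, and Slc16a3, the lactate exporter MCT4, had 1.05 and 0.92. Pdha1, a subunit of pyruvate dehydrogenase, had −0.10 and −0.15, and the pentose phosphate enzymes G6pdx, Tkt and Taldo1 had −0.24 and −0.24, −0.32 and −0.05, and −0.28 and −0.17. Pdk1, the kinase that shuts pyruvate dehydrogenase off, had −0.18 and 0.51, the other subunit Pdhb −0.75 and 0.25 and Pgd of the pentose branch −0.06 and 0.47, so the libraries differed in sign on these. A list of 12 hypoxia-induced genes outside glycolysis had medians of 1.47 and 1.27 in the same comparison. These medians leave out Adm and Car9, which had under 20 UMIs over both classes in the ketogenic library. Median UMIs per cell were 3260 and 3555 in the Arg1-positive C1q-low class, against 4141 and 4543 in the Arg1-negative class. Over 5 alternatives, among them cells of 2000 to 5000 UMIs only, the members' medians ran from 0.79 to 0.86 in the ketogenic library. In the normal library they ran from 0.69 to 0.91.

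**Figure D2:**
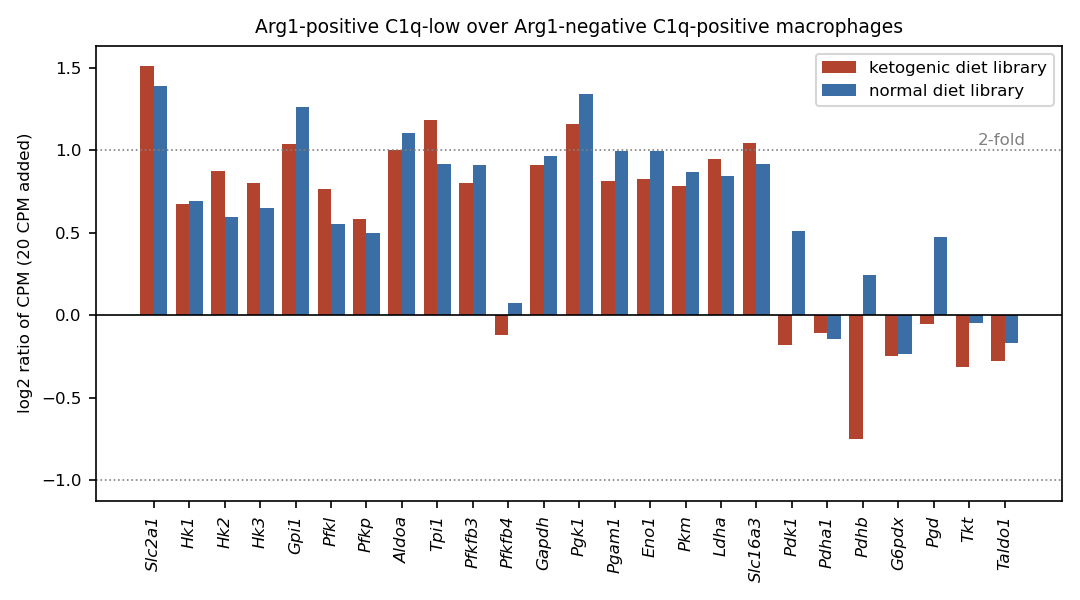
Log2 ratio of CPM, with 20 CPM added, of each of 25 members in Arg1-positive C1q-low over Arg1-negative C1q-positive macrophages, in pathway order, with the ketogenic library left and the normal library right in each pair and dotted lines at 2-fold. Slc2a1 is highest at 1.51 and 1.39, and G6pdx, Tkt and Taldo1 lie below 0 in both libraries.

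Arg1-positive macrophages that kept C1q took a place between these classes. Over Arg1-negative C1q-positive macrophages their sum was 1.5 and 1.73 times as high and their median log2 ratio 0.34 and 0.48. None of 26 members was at least 2-fold higher or lower in both libraries, against 0.313% and 0.0469% of 6396 genes. Slc2a1 came nearest, with 204 against 90.7 CPM in the ketogenic library and 220.4 against 111 CPM in the normal library and log2 ratios of 1.01 and 0.88.

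Set against Chil3-high monocytes, monocytes being precursors of tumor macrophages, Arg1-positive C1q-low macrophages had 8 of 25 members at least 2-fold higher in both libraries, where 2.88% of 5653 genes were. These were Slc2a1, Gpi1, Aldoa, Tpi1, Gapdh, Pgk1, Eno1 and Ldha. The hexokinases, the phosphofructokinases, Pgam1 and Pkm were not among them, so the run from uptake to lactate had gaps. Tpi1 had 1590 against 369 CPM in the ketogenic library and 1432 against 452 CPM in the normal library, ratios of 4.31 (3.80 to 4.89) and 3.17 (2.78 to 3.62). Gapdh had 5359 against 1852 CPM in the ketogenic library and 4674 against 1787 CPM in the normal library, and Ldha had 1753 against 587 CPM in the ketogenic library and 1533 against 661 CPM in the normal library.

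One member went the other way, where 1.86% of genes did. Taldo1, the transaldolase that links the pentose branch back to glycolysis, had 370.0 against 1003 CPM in the ketogenic library and 357 against 878 CPM in the normal library, ratios of 0.369 (0.306 to 0.441) and 0.406 (0.347 to 0.474). Taldo1 was highest in neutrophils, with 1124 and 1007 CPM in the ketogenic and the normal library, and in Chil3-high monocytes, with 1003 and 878 CPM, and lowest in the tumor or stromal class and in NK cells, with 161 to 177 CPM in the ketogenic and 155 to 171 CPM in the normal library. The other pentose phosphate enzymes shared the direction in part. G6pdx, which makes the first NADPH of the branch, had log2 ratios of −0.88 and −1.27, Tkt (transketolase) had −0.51 and −0.55, and Pgd, the second NADPH-forming enzyme, had −0.22 and −0.03.

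The 4 pentose phosphate genes summed to 1520 and 1522 CPM in Chil3-high monocytes, 1442 and 1399 CPM in neutrophils and 1208 and 1060 CPM in Cxcl10-high monocytes, ketogenic library first. In Arg1-positive C1q-low macrophages they summed to 729 and 816 CPM, and in Gzmc-low NK cells, the lowest class, to 347 and 349 CPM. By these sums, the classes highest in this branch were not those highest in glycolysis. Taldo1 held most of the sum in neutrophils and in both monocyte classes, and the order of classes without Taldo1 was not read. Neutrophils over Chil3-high monocytes had 1 of 26 members at least 2-fold higher, Slc2a3, where 3.8% of 5137 genes were: it had 63.5 against 1.69 CPM in the ketogenic library and 106 against 0 CPM in the normal library, from 23 and 37 UMIs against 2 and 0. None was lower, against 0.642% of genes. Between Chil3-high and Cxcl10-high monocytes 0 members were 2-fold apart in both libraries, against 0.552% of 6162 genes that were higher and 1.59% that were lower in the Chil3-high cells.

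Among NK cells the summed level was lowest in those with little granzyme C. Gzmc-positive NK cells had sums 1.69 times those of Gzmc-low NK cells in both libraries. Their median log2 ratio over 27 members was 0.36 and 0.26. Pgk1 alone was at least 2-fold higher in both libraries, where 0.475% of 8414 genes were, and 0 were lower, against 0.713%. Pgk1 had 492 against 177 CPM in the ketogenic library and 546 against 221 CPM in the normal library. Gzmc-positive NK cells were deeper, with median UMIs of 5448 and 6079 against 1985 and 2068, and with cells of 2000 to 5000 UMIs only the medians were 0.23 and 0.16. 

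Cycling NK cells, which express genes of mitosis, differed little from Gzmc-positive NK cells, with medians of 0.07 and −0.01 and 0 of 27 members 2-fold apart in both libraries, against 2.07% of 8599 genes that were higher and 0.0349% that were lower. CD8 T cells had sums 1.54 and 1.62 times those of CD8-negative T cells, with 0 of 24 members 2-fold apart, against 0.642% of 6547 genes that were higher and 0.932% that were lower. CD8 T cells were deeper, with median UMIs of 4015 and 4095 against 1979 and 2059. CD8-negative meant no UMI of Cd8a or Cd8b1, so shallow CD8 T cells can fall in that class. Slc2a1 was 1 of the members on which the libraries differed, with 35.7 against 29.7 CPM in the ketogenic library and 67.2 against 23.3 CPM in the normal library. Against Gzmc-low NK cells, CD8 T cells had Tpi1, Gapdh and Pgk1 at least 2-fold higher in both libraries, 3 of 25 members where 2.55% of 7027 genes were, and 0 lower, against 1.71%. For Pgk1 the values were 575 against 177 CPM in the ketogenic library and 691 against 221 CPM in the normal library, the largest ratios of the 3. Gzmc-low NK cells were also shallower than CD8 T cells, with median UMIs of 1985 and 2068.

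In the Rhox5-positive tumor or stromal class, 1 of 30 members was at least 2-fold higher than in all kept barcodes in both libraries, where 4.85% of 12977 genes were, and 3 were lower, where 6.85% were, so the members stood near the shares of all genes. Ldhb, the lactate dehydrogenase subunit that favors pyruvate, had 61.0 against 13 CPM in the ketogenic library and 48.0 against 10.5 CPM in the normal library. Hk3, the hexokinase of myeloid cells, had 1.53 against 30.2 CPM in the ketogenic library and 5.08 against 55.5 CPM in the normal library, and Pfkp and Taldo1 were also low, with log2 ratios of −1.0 and −1.04 and of −1.11 and −1.05. Its median depth of 30173 and 33370 UMIs was the highest of the compared classes.

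Where several genes encode the enzyme of 1 step, the share of each was read from UMIs, since each molecule is counted once, by its 3 prime end, whatever its length. Hexokinases split by lineage. Hk1 made up 76.5% (65.8 to 85.2, 62 of 81 UMIs) in the ketogenic and 77.1% (68.5 to 84.3, 91 of 118 UMIs) in the normal library in CD8 T cells. In Arg1-positive C1q-low macrophages it made up 22.8% (15.9 to 31.1, 29 of 127 UMIs) in the ketogenic and 20.3% (15.4 to 26.0, 48 of 236 UMIs) in the normal library. Over the 5 lymphocyte classes the Hk1 share ran from 60.4% to 78.6% in the ketogenic and from 68.4% to 77.8% in the normal library, and over the 6 macrophage, monocyte and neutrophil classes from 17.6% to 24.3% and from 18.0% to 20.3%, so the lineages did not overlap.

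Myeloid cells used Hk2 and Hk3 instead, with Hk3 at 28.4% to 38.8% in the ketogenic and 36.5% to 45.4% in the normal library. In the tumor or stromal class Hk3 was 1.60% and 4.74%, and Hk2, the isozyme most often induced in tumors, was 57.8% and 50.0%. Glucose transporters also differed between classes, though not by lineage alone, since neutrophils held Slc2a3 too. Slc2a1 made up 94.7% and 95.3% of transporter UMIs in Arg1-positive C1q-low macrophages and 45.1% and 43.5% in CD8 T cells. Slc2a3, the high-affinity transporter, made up 52.0% (41.8 to 62.0, 53 of 102 UMIs) in the ketogenic and 56.0% (48.6 to 63.1, 108 of 193 UMIs) in the normal library in CD8 T cells and at most 3.54% in the 5 macrophage and monocyte classes. Slc2a6 reached its highest ketogenic shares in the monocytes, 26.5% and 28.2% in Chil3-high and 27.5% and 17.9% in Cxcl10-high cells.

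Phosphofructokinase, the committed step, shifted between Pfkl and Pfkp. Pfkl, the liver-type isozyme, made up 59.4% and 57.0% in the tumor or stromal class and 49.4% and 47.1% in Arg1-positive C1q-positive macrophages, against 21.6% and 20.7% in CD8 T cells. Pfkp, the platelet type, took most of the rest, and Pfkm, the muscle type, reached 7.63% and 7.52% in the tumor or stromal class and at most 3.57% in the others. Pfkfb3 and Pfkfb4 were also both present, with Pfkfb3 at 53.7% and 56.7% in Chil3-high monocytes and 78.6% and 81.6% in Arg1-positive C1q-low macrophages. Aldolase, enolase and lactate dehydrogenase were each carried almost wholly by 1 gene in the 12 classes. Aldoa made up at least 98.0% of aldolase UMIs, with Aldoc the rest, and Eno1 at least 99.3% of enolase UMIs, Eno2 having under 20 UMIs in each class. Ldha made up at least 96.0% of lactate dehydrogenase UMIs.

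**Figure D3:**
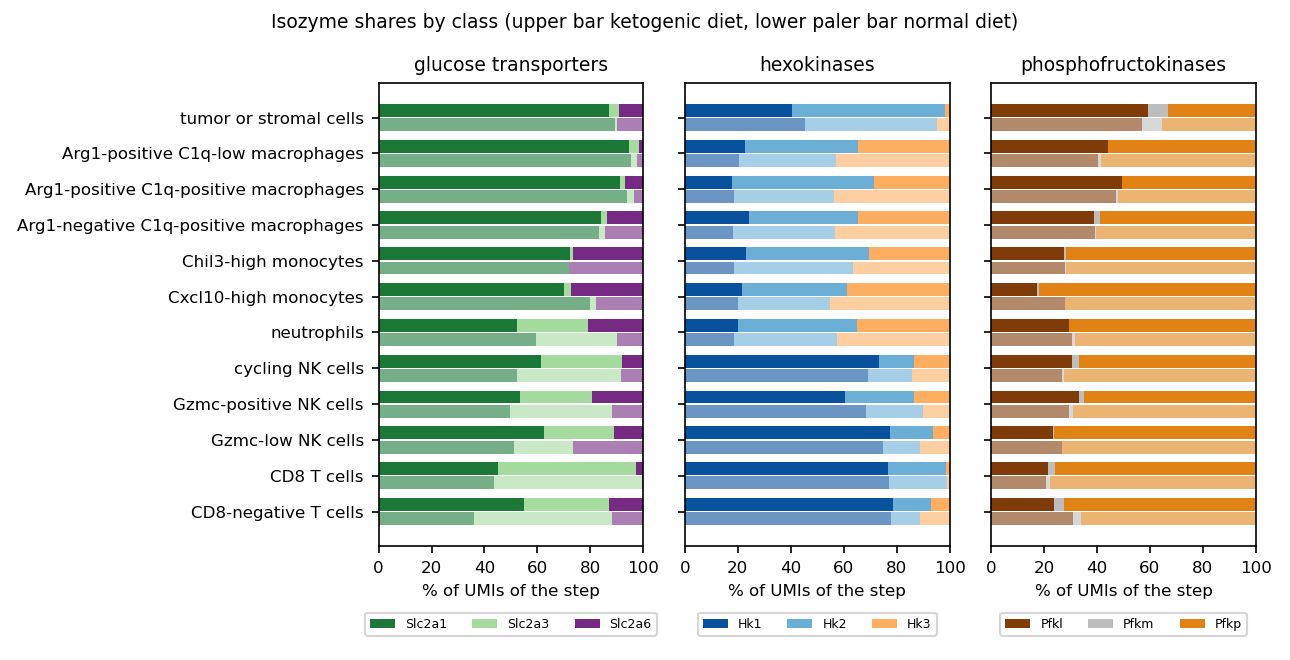
Share of UMIs of each glucose transporter, hexokinase and phosphofructokinase gene (horizontal axes, percent of the step) in 12 classes, with the ketogenic library in the upper and the normal library in the lower, paler bar. Hk1 fills 76.5% and 77.1% of the hexokinase bar of CD8 T cells and 22.8% and 20.3% of that of Arg1-positive C1q-low macrophages.

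Between diets, no member was at least 1.5-fold higher in the ketogenic library in any of the 12 classes, and 12 of 303 pairs of member and class were at least 1.5-fold lower. That is 3.96% of pairs, close to the 3.62% of pairs over all genes tested in the same classes, of which 1.41% were higher. These counts rest on the 20 CPM that were again added to both levels: with 1 CPM added, 32 pairs (10.6%) were lower and 2 (0.66%) higher, against 13.8% and 5.72% over all genes. A pair needed 20 UMIs over both libraries. Eno2, the neuronal enolase, had too few UMIs in each class, and 18 members had enough in all 12. The members' median log2 ratio, ketogenic over normal, was below 0 in 10 classes and above 0 in 2. The median over all genes was below 0 in all 12, and in 3 of the 10 the members' median lay above it. The members' median was lowest in Arg1-positive C1q-positive macrophages at −0.27 (all genes −0.09) and CD8 T cells at −0.22 (all genes −0.05), and highest in cycling NK cells at 0.07 (all genes −0.03). In CD8 T cells 20 of 25 members lay below 0, and in Arg1-positive C1q-positive macrophages 22 of 26. The share of all genes below 0 in these classes was not counted. With cells of 2000 to 5000 UMIs only, the median was −0.42 in CD8 T cells and 0.02 in Arg1-positive C1q-positive macrophages, so the direction in the macrophages turned. That macrophage class also differed in its markers, with classical monocyte genes at 5371 CPM in the ketogenic and 7571 CPM in the normal library and macrophage genes at 14058 and 11471 CPM; their part was not tested.

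The summed level moved by less than 1.2-fold in each of the 12 classes. The ratio was 0.888 (0.874 to 0.902) in the tumor or stromal class, 0.890 (0.867 to 0.914) in CD8 T cells and 0.909 (0.881 to 0.939) in Chil3-high monocytes, the lowest 3, and 1.08 (1.06 to 1.11) in Arg1-negative C1q-positive macrophages, the highest. The sums of Arg1-positive C1q-low and C1q-positive macrophages went opposite ways, with 1.05 (1.02 to 1.08) and 0.939 (0.913 to 0.965). Their members' median log2 ratios did not, at −0.05 and −0.27.

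Counts of members past 1.5-fold stood beside different backgrounds over all genes tested. In Arg1-positive C1q-low macrophages 3 of 25 members were lower, where 9.15% of genes were lower and 2.61% higher. In Arg1-positive C1q-positive macrophages 2 of 26 were lower, where 8.68% of genes were lower and 1.79% higher. Neutrophils had 3 of 25 lower, against 10.8% of genes lower and 5.39% higher. Cxcl10-high monocytes had 1 of 27 lower, against 4.8% lower and 1.13% higher. These shares of members lie near their backgrounds or below. In Gzmc-low NK cells 1 of 22 members was lower, against 2.29% of genes lower and 0.918% higher, and in CD8 T cells 2 of 25, against 1.88% lower and 0.55% higher. The share stood furthest above its background in CD8 T cells, where it rests on 2 genes. In the other 6 classes 0 members passed 1.5-fold either way with 20 CPM added, and each had 1 to 3 past it with 1 CPM added. Genes higher and lower there made up 0.644% and 0.575% in the tumor or stromal class, 0.567% and 1.57% in Arg1-negative C1q-positive macrophages and 1.18% and 4.59% in Chil3-high monocytes. They made up 0.486% and 1.24% in cycling NK cells, 0.137% and 0.253% in Gzmc-positive NK cells and 5.87% and 7.24% in CD8-negative T cells.

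**Figure D4:**
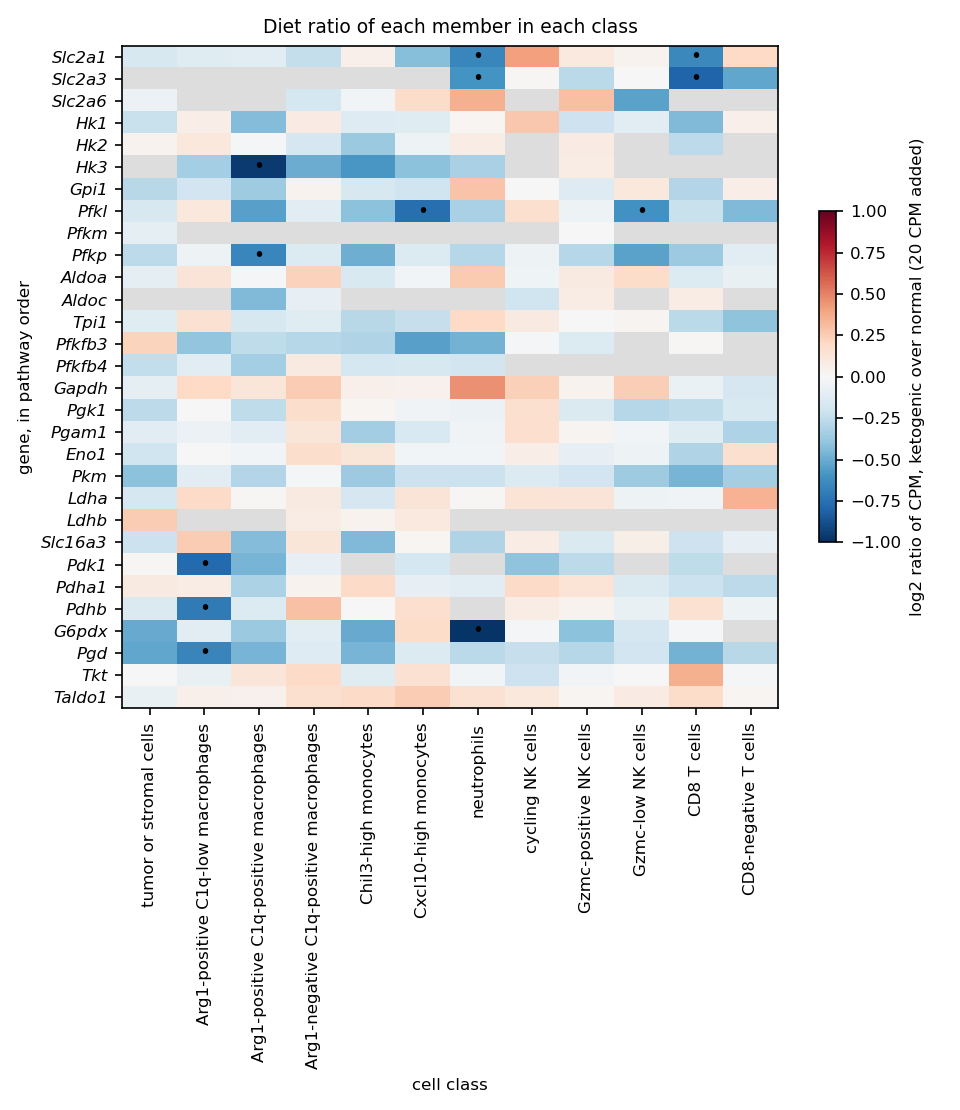
Log2 ratio of CPM, ketogenic over normal with 20 CPM added, of 30 members (rows, in pathway order) in 12 classes (columns), blue where lower in the ketogenic library, gray where a gene had under 20 UMIs in both libraries together, and with a dot at 1.5-fold or more. The 12 dots are all on blue cells, and the rows of Pfkp, Pkm and Pgd are blue throughout.

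Glucose uptake genes gave the largest diet differences among the members in CD8 T cells. Slc2a3 had 41.2 CPM (30.8 to 53.9, 53 UMIs) in the ketogenic library and 86.4 CPM (70.8 to 104, 108 UMIs) in the normal library, a ratio of 0.477 (0.337 to 0.668). Slc2a1 had 35.7 CPM (26.2 to 47.7, 46 UMIs) in the ketogenic library and 67.2 CPM (53.6 to 83.2, 84 UMIs) in the normal library, a ratio of 0.532 (0.363 to 0.771). Both were thus at about 0.5 of the normal level, with counting intervals that did not reach 1. Such intervals were common: of all 303 pairs of member and class, 72 had an interval wholly below 1 and 26 wholly above 1. Hk1, the main hexokinase of these cells, had 48.2 CPM in the ketogenic and 72.8 CPM in the normal library, a ratio of 0.662 (0.471 to 0.924) that missed 1.5-fold once 20 CPM were added.

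Other values of these CD8 T cells moved as well. Genes of S phase and mitosis summed to 1232 CPM in the ketogenic and 1533 CPM in the normal library, median UMIs were 4015 and 4095, and the median mitochondrial share was 1.39% and 2.02%; the part of these was not tested. With barcodes of several lineages kept, the log2 ratios were −0.42 for Slc2a3 and −0.21 for Slc2a1, both under 1.5-fold. With cells of 2000 to 5000 UMIs they were −0.59 and −0.46, and with the ambient profile subtracted −0.80 and −0.67. In CD8-negative T cells Slc2a3 had 10 and 13 UMIs and a log2 ratio of −0.52, and Slc2a1 had 17 and 9 UMIs and 0.20.

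Neutrophils, short-lived phagocytes that live largely on glycolysis, had the same 2 transporters past 1.5-fold. Slc2a1 had 124 CPM (90.7 to 166, 45 UMIs) in the ketogenic library and 207 CPM (162 to 261, 72 UMIs) in the normal library, a ratio of 0.600 (0.404 to 0.883). Slc2a3 had 63.5 CPM (40.3 to 95.3, 23 UMIs) in the ketogenic library and 106 CPM (75.0 to 147, 37 UMIs) in the normal library, a ratio of 0.597 (0.338 to 1.03) whose interval includes 1. These values depended on the cells taken: median UMIs were 1283 and 1051, and with barcodes of at least 1000 UMIs the log2 ratio of Slc2a1 was −0.34, with 2000 to 5000 UMIs 0.04. That of Slc2a3 was −0.30 with 2000 to 5000 UMIs, under 1.5-fold. Classical monocyte genes in this class summed to 10975.5 CPM in the ketogenic and 6734 CPM in the normal library, with Chil3 at 1975 and 452 CPM, and Slc2a3 in Chil3-high monocytes was at 1.69 and 0 CPM; the part of this was not tested.

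In the other classes no uptake gene passed 1.5-fold with 20 CPM added, and both directions occurred. Over all 12 classes Slc2a1 was below 0 in 7 and above 0 in 5. The summed transporters had a ratio of 0.814 (0.661 to 0.994) in Arg1-negative C1q-positive macrophages. In Cxcl10-high monocytes it was 0.803 (0.614 to 1.04), with an interval that includes 1. Slc2a1 in Arg1-positive C1q-low macrophages, its highest class, had 295 CPM in the ketogenic and 323 CPM in the normal library, a ratio of 0.914 (0.716 to 1.16). In cycling NK cells it had 42.0 CPM in the ketogenic and 26.7 CPM in the normal library, a ratio of 1.57 (0.981 to 2.60) with an interval that includes 1. Slc2a6 in Gzmc-positive NK cells had 18.1 CPM in the ketogenic and 11.0 CPM in the normal library, a ratio of 1.66 (1.11 to 2.52), which was under 1.5-fold once 20 CPM were added.

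**Figure D5:**
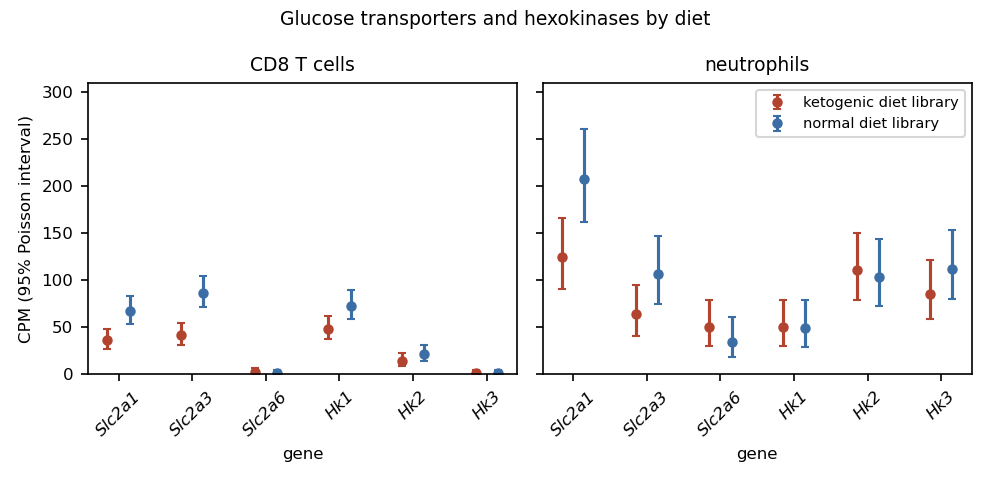
Levels of 3 glucose transporters and 3 hexokinases in CPM with 95% Poisson intervals in CD8 T cells (left panel) and neutrophils (right panel), ketogenic library left of normal library for each gene. In CD8 T cells Slc2a3 stands at 41.2 and 86.4 CPM and Slc2a1 at 35.7 and 67.2 CPM; in neutrophils Slc2a1 stands at 124 and 207 CPM.

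Hk3 differed most among the hexokinases. In Arg1-positive C1q-positive macrophages it had 63.5 CPM (42.5 to 91.2, 29 UMIs) in the ketogenic library and 142 CPM (119 to 169, 135 UMIs) in the normal library, a ratio of 0.446 (0.288 to 0.670). It was below 0 on the log2 scale in 6 of the 7 classes that had enough UMIs, among them Arg1-negative C1q-positive macrophages, with 61.0 CPM in the ketogenic and 94.1 CPM in the normal library, and Chil3-high monocytes, with 53.9 CPM in the ketogenic and 90.6 CPM in the normal library. In the ambient barcodes Hk3 stood at 20.8 and 62.0 CPM, also lower in the ketogenic library. With the ambient profile subtracted, the log2 ratio in Arg1-positive C1q-positive macrophages was −0.97, against −0.96 without. The classical monocyte genes of this class, at 5371 CPM in the ketogenic and 7571 CPM in the normal library, moved the same way; their part in Hk3 and Pfkp was not tested. Hk2 stayed between −0.37 and 0.10 in the 9 classes where it was measured.

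Both phosphofructokinases tended to be lower in the ketogenic library. Pfkl had 40.0 CPM (26.1 to 58.6, 26 UMIs) in the ketogenic library and 81.4 CPM (67.4 to 97.4, 119 UMIs) in the normal library in Cxcl10-high monocytes, which carry an interferon-induced chemokine, a ratio of 0.491 (0.308 to 0.756). In Gzmc-low NK cells it had 32.2 CPM (23.3 to 43.4, 43 UMIs) in the ketogenic library and 59.5 CPM (42.1 to 81.7, 38 UMIs) in the normal library, a ratio of 0.541 (0.342 to 0.860). Hemoglobin genes, of red blood cells, summed to 8.23 CPM in the ketogenic and 2788 CPM in the normal library in that class; their part was not tested. Pfkl was below 0 in 10 of 12 classes and Pfkp in all 12.

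Pfkp passed 1.5-fold in Arg1-positive C1q-positive macrophages, with 96.3 CPM (70.0 to 129, 44 UMIs) in the ketogenic library and 162 CPM (138 to 190.2, 154 UMIs) in the normal library, a ratio of 0.593 (0.414 to 0.834). That value did not hold for cells of 2000 to 5000 UMIs, where the log2 ratio was 0.04, nor with each cell weighted equally, where it was −0.41. In the other classes Pfkp ran from −0.54 in Gzmc-low NK cells to −0.05 in Arg1-positive C1q-low macrophages. Pfkfb3 was below 0 in 8 of 10 classes, from −0.55 in Cxcl10-high monocytes, where it had 46.2 and 76.6 CPM, to 0.22 in the tumor or stromal class, and Pfkfb4 in 6 of 7.

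The other steps down to triose phosphate had no value past 1.5-fold. Aldoc was measured in 5 classes and Pfkm in 2, all under 1.5-fold. Aldoa stayed between −0.15 and 0.26, Tpi1 between −0.40 and 0.20, and Gpi1 between −0.35 and 0.29. From triose to pyruvate the first and the last enzyme differed in sign. Gapdh was above 0 in 9 of 12 classes, up to 0.46 in neutrophils, where it had 1947 CPM (1806 to 2096, 705 UMIs) in the ketogenic library and 1410 CPM (1288 to 1541, 490 UMIs) in the normal library, a ratio of 1.38 (1.23 to 1.55). Pkm, which makes pyruvate, was below 0 in all 12, down to −0.47 in CD8 T cells, where it had 544 CPM (504 to 586, 700 UMIs) in the ketogenic library and 759.7 CPM (712 to 809.6, 950 UMIs) in the normal library, a ratio of 0.716 (0.648 to 0.790).

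The genes between Gapdh and Pkm were also all under 1.5-fold, with Pgk1 from −0.29 to 0.18, Pgam1 from −0.35 to 0.17 and Eno1 from −0.30 to 0.18. Ldha was above 0 in 8 of 12 classes and highest in CD8-negative T cells, with 777 CPM in the ketogenic and 607 CPM in the normal library, a ratio of 1.28 (1.09 to 1.51). Slc16a3 ran from −0.44 in Chil3-high monocytes, with 196 and 273 CPM in the ketogenic and the normal library, to 0.26 in Arg1-positive C1q-low macrophages, with 450.0 and 374 CPM. Ldhb was measured in 4 classes and was above 0 in each, at most 0.25 in the tumor or stromal class.

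The genes of pyruvate dehydrogenase and its kinase did not go 1 way in Arg1-positive C1q-low macrophages, and Pdk1 and Pdhb had few UMIs there. Pdk1 had 5 and 24 UMIs, a log2 ratio of −0.78, and Pdhb had 7 and 28 UMIs, a log2 ratio of −0.71, whereas Pdha1 was at 0.07. One cell held 28.6% of the 7 ketogenic Pdhb UMIs, and with each cell weighted equally its log2 ratio was −0.15. Pdk1 was below 0 in 7 of the 8 classes where it was measured, and Pdha1 in 6 of 12.

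In the pentose branch the 2 genes of NADPH-forming enzymes were mostly lower in the ketogenic library, and Taldo1 mostly slightly higher. Pgd had 124 CPM (90.6 to 166, 45 UMIs) in the ketogenic library and 208 CPM (174 to 247, 132 UMIs) in the normal library in Arg1-positive C1q-low macrophages, a ratio of 0.597 (0.416 to 0.843), and was below 0 in all 12 classes. G6pdx was below 0 in 10 of 11 classes and lowest in neutrophils, with 7 and 20 UMIs and a ratio of 0.336 (0.120 to 0.827). In Gzmc-positive NK cells G6pdx had 6.91 CPM (4.73 to 9.76, 32 UMIs) in the ketogenic library and 15.8 CPM (11.8 to 20.7, 52 UMIs) in the normal library, a ratio of 0.437 (0.272 to 0.692), which with 20 CPM added was under 1.5-fold.

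Taldo1 was above 0 in 11 of 12 classes, up to 0.26 in Cxcl10-high monocytes, where it had 722 CPM (658 to 790.0, 469 UMIs) in the ketogenic library and 601 CPM (562 to 642, 878 UMIs) in the normal library. Tkt was above 0 in 5 of 12 and highest in CD8 T cells, with 186 CPM in the ketogenic and 141 CPM in the normal library, a ratio of 1.32 (1.08 to 1.61). Of the 18 members measured in all 12 classes, Pfkp, Pkm and Pgd were below 0 in all and 0 were above 0 in all; over 2955 genes, 6.4% were below in all and 6.02% above in all. For members below or above 0 in only some classes, the matching share over all genes was not counted. All classes of a diet come from 1 library, so agreement between classes is not replication. Pkm and Pgd were also lower in the ketogenic ambient barcodes, with 677 and 1001 CPM for Pkm and 51.6 and 109.9 CPM for Pgd. Ambient RNA made up an estimated 1.23% to 4.62% of class UMIs in the ketogenic and 1.34% to 4.38% in the normal library.

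A list of 38 further genes of the pathways was counted in the same way. Of 194 pairs of gene and class with enough UMIs, 4 (2.06%) were at least 1.5-fold higher and 2 (1.03%) lower, against 1.41% and 3.62% of pairs over all genes. Only Pgm1 and Rpe passed in more than 1 class, each in both directions. Pgm1, which encodes a phosphoglucomutase, had 17 and 52 UMIs in Arg1-positive C1q-low macrophages, a ratio of 0.572 (0.310 to 1.01), and 19 and 3 UMIs in neutrophils, a ratio of 6.08 (1.79 to 32.1). Rpe, a pentose phosphate epimerase, had log2 ratios of 0.59 in Arg1-positive C1q-low macrophages and −0.89 in CD8-negative T cells.

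The hypoxia-induced genes outside glycolysis passed 1.5-fold in both directions between diets. Of 111 pairs, 6 (5.41%) were higher and 6 (5.41%) lower, against 1.41% and 3.62% of pairs over all genes. Their median log2 ratio ran from −0.30 in Chil3-high monocytes to 0.34 in Gzmc-low NK cells, and in CD8 T cells it was −0.17. Hilpda, which protects lipid droplets from lipolysis, was higher in 4 classes: 138 and 78.7 CPM in Chil3-high monocytes, 203 and 82.1 CPM in Cxcl10-high monocytes, 859 and 524 CPM in neutrophils and 149.7 and 70.4 CPM in Gzmc-low NK cells, ketogenic library first. The other higher pairs were Vegfa, a growth factor of blood vessels, in Gzmc-low NK cells (0.60) and Ero1l, an oxidase of the endoplasmic reticulum, in CD8-negative T cells (0.63). Lower were Ero1l in neutrophils (−0.95) and Cxcl10-high monocytes (−0.60), Vegfa in Chil3-high monocytes (−0.81), Ddit4, an inhibitor of mTORC1 signaling, in Chil3-high monocytes (−0.71) and Arg1-positive C1q-positive macrophages (−0.80), and Mxi1, an antagonist of Myc, in CD8 T cells (−0.59). Of 83 pairs of regulators of the pathway and classes, 0 were higher and 5 (6.02%) lower, against the same 1.41% and 3.62% of all pairs. Egln3, an oxygen-sensing prolyl hydroxylase, was among them in neutrophils, with 41.4 and 97.8 CPM, as was Txnip, which restrains glucose uptake, in Chil3-high monocytes, with 90.2 and 159 CPM. The rest had few UMIs: Egln3 in Cxcl10-high monocytes (−0.69, 3 and 29 UMIs), Arnt in neutrophils (−0.68, 7 and 15) and Mlxip in CD8-negative T cells (−0.95, 6 and 15). Txnip went the other way in CD8 T cells, with 188 and 123 CPM, a ratio of 1.53 (1.24 to 1.88). That was under 1.5-fold once 20 CPM were added. Its ratio was also above 1 in the tumor or stromal class, at 1.64 (1.17 to 2.32). The same held in Arg1-positive C1q-positive macrophages and Gzmc-positive NK cells, whereas neutrophils and Cxcl10-high monocytes were lower. Hif1a had ratios of 0.741 (0.628 to 0.872) in CD8 T cells, 0.692 (0.574 to 0.835) in Chil3-high monocytes and 0.638 (0.479 to 0.841) in Arg1-positive C1q-positive macrophages. These were under 1.5-fold once 20 CPM were added. The Hif1a ratio was above 1 in the tumor or stromal class, cycling NK cells and CD8-negative T cells, with intervals that include 1.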

How the data were processed

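Single-cell RNA libraries of CD45-enriched cells from MC38 tumors were analysed, 1 per diet, each a pool of 5 mice. The authors' deposited matrices hold raw UMI counts per gene and barcode, not filtered to cells, and were written by Cell Ranger 4 per the file headers, whereas the submitters' processing notes name Cell Ranger 6.0.0 and Seurat 3.2.0 with GRCm38 or mm10.

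A barcode was kept from 500 UMIs and 300 genes on, which left 5944 in the ketogenic and 5671 in the normal library, with 39758619 and 35623303 UMIs. Each was placed by summed marker CPM; thresholds were set after the marker values were seen. No doublet caller was run: barcodes with markers of 2 lineages were set aside (19.1% and 20.1% of those kept), as were 772 and 439 unassigned ones. UMIs were summed per class and library and divided by the class total (CPM). Genes with at least 20 UMIs over the libraries compared were measured, and 20 CPM were added before log2. A call was 1.5-fold between diets, or 2-fold in both libraries between classes. There was no test, since each diet has 1 library.

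All members were accounted for. Those that passed a call (with 50 UMIs between diets) were described in full; other pairs given with intervals, such as Pkm in CD8 T cells, were chosen after their values were seen. Members, lists and classes were chosen with earlier results of these data known. The Aldoa counts of 2 gene IDs were added, the second with 2 and 1 UMIs. Eno1b, a copy close to Eno1, had 228 and 190 UMIs and G6pd2, close to G6pdx, 0 and 0, so reads may have been lost between such copies. Alternatives were 9 chosen at the outset and 1 added after the depth of the classes was seen. The scripts were tested on simulated counts and used scipy 1.17.1, pandas 2.3.3, numpy 2.4.6 and matplotlib 3.10.9 under Python 3.11.15.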

Additional observations from a re-analysis of the deposited data

How the results depend on the processing

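Depth limited the diet comparison to genes with at least 20 UMIs, and 3 of the 12 member and class pairs past 1.5-fold had under 50. The count of pairs at least 1.5-fold lower was 32 with 1 CPM added in place of 20, and within 1.5 times 12 otherwise. The count of pairs higher was 2 with 1 CPM added, 2 with cells weighted equally, 1 with barcodes of at least 1000 UMIs and 5 with cells of 2000 to 5000 UMIs, an alternative chosen after seeing the data that leaves 10 classes. Of 118 alternative values of the members' median between diets, 13 moved by more than the counting error of a median. In Arg1-positive C1q-positive macrophages it was −0.155 with stricter gates, −0.086 with barcodes of 2 lineages kept, −0.16 with no minimum on UMIs and 0.023 with cells of 2000 to 5000 UMIs. Those cells gave 0.056 in Arg1-positive C1q-low macrophages, 0.14 in Arg1-negative C1q-positive macrophages and −0.42 in CD8 T cells. Keeping barcodes of 2 lineages gave −0.063 in Arg1-negative C1q-positive macrophages, −0.21 in neutrophils, −0.10 in Gzmc-positive and −0.22 in Gzmc-low NK cells. Weighting cells equally gave −0.063 in the tumor or stromal class and −0.20 in neutrophils.

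Of 70 alternative medians between classes, 11 moved that far. Stricter gates gave 0.52 and 0.65 for Arg1-positive C1q-positive over Arg1-negative macrophages in the ketogenic and the normal library, and 0.91 for C1q-low over Arg1-negative macrophages in the normal library. Weighting cells equally gave 0.83 for C1q-low over Arg1-negative macrophages in the normal library, 1.10 for C1q-low macrophages over Chil3-high monocytes, 0.23 for Gzmc-positive over Gzmc-low NK cells and −0.022 for neutrophils over Chil3-high monocytes, the last 3 in the ketogenic library. Cells of 2000 to 5000 UMIs gave, in the normal library, 0.81 for C1q-low over Arg1-negative macrophages, 0.60 for C1q-low macrophages over Chil3-high monocytes and −0.19 for neutrophils over Chil3-high monocytes, and in the ketogenic library 0.32 for CD8 T cells over Gzmc-low NK cells. The counts of 4 and 8 members at least 2-fold higher in C1q-low macrophages stayed within 3 to 5 and 8 to 9. The causes were not tested.

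Of 120 alternative values of the 12 pairs past 1.5-fold, 118 kept their direction and 96 stayed past 1.5-fold. The 2 that turned were Pfkp in Arg1-positive C1q-positive macrophages (0.037) and Slc2a1 in neutrophils (0.039), both with cells of 2000 to 5000 UMIs. Under that alternative the tumor or stromal class and cycling NK cells had too few cells for a value. Hk3 in Arg1-positive C1q-positive macrophages and G6pdx in neutrophils stayed past 1.5-fold in all 10 alternatives, Hk3 between −1.24 and −0.80. With barcodes of 2 lineages kept, Slc2a1 in CD8 T cells was at −0.21, Pfkl in Cxcl10-high monocytes at −0.47 and Pgd in Arg1-positive C1q-low macrophages at −0.55, all under 1.5-fold. So were Pfkl in Gzmc-low NK cells with cells weighted equally (−0.57) and Pdk1 in Arg1-positive C1q-low macrophages with cells of 2000 to 5000 UMIs (−0.47). No paired analysis was possible because each diet has 1 library and the labels give no replicate numbers.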

Other observations

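In plasmacytoid dendritic cells, 28 in the ketogenic and 21 in the normal library, the share of Ldhb among lactate dehydrogenase UMIs was 24.5% (13.3 to 38.9, 12 of 49 UMIs) in the ketogenic and 23.6% (13.2 to 37.0, 13 of 55 UMIs) in the normal library, and it was at most 3.98% in the 12 compared classes. In dendritic cells with Ccr7, which carry antigen to lymph nodes, the 31 genes summed to 4648 CPM in 22 ketogenic cells and 7139 CPM in 27 normal cells, a ratio of 0.651 (0.576 to 0.735). Their markers of Ccr7 dendritic cells summed to 6895 and 3610 CPM, their myeloid markers to 3610 and 6469 CPM, and their median UMIs were 3022 and 4518; the part of these was not tested. In barcodes with markers of more than 1 lineage the sum was 8426 and 9511 CPM, a ratio of 0.886 (0.879 to 0.893). In basophils or mast cells the ratio was 1.14 (0.957 to 1.35), with an interval that includes 1.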
